A study of Homo sapiens with 6 samples.

Results

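FOS, FOSB, FOSL1, FOSL2, JUN, JUNB, JUND, EGR1, EGR2 and EGR3 are early response genes, and all 10 were found by symbol among the 19386 genes of the deposited expression table. Their expression was compared between AC16 cells given 26 mM potassium chloride (KCl) and untreated AC16 cells, both collected at 16 h, with 3 libraries in each group. AC16 is a human cell line labelled as wild-type cardiomyocytes of the heart, made by fusing adult ventricular cells with virus-transformed fibroblasts, and all libraries come from this 1 line. No label states that a group's libraries are separate cultures, so the p-values rest on a spread that may be purely technical. KCl raises extracellular potassium, depolarizes the cell membrane and is used to arrest the heart during surgery, and the series asks about its effect on NRF2 and oxidative stress.

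The FOS and JUN proteins are basic leucine zipper (bZIP) factors that pair to form AP-1, which binds short palindromic DNA sites. JUN proteins can pair with each other or with a FOS protein, whereas FOS proteins need a JUN partner. The EGR proteins are zinc finger factors that bind GC-rich sites and are restrained by the corepressors NAB1 and NAB2. In excitable cells, depolarization lets calcium in through voltage-gated channels, and calcium and mitogen signals switch many of these genes on within minutes through the factors SRF and CREB. That first wave is known to be brief, and a collection at 16 h does not measure it.

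The promoter windows of the members that passed the test are shown first because SRF and CREB act through short elements near the start sites, and that of FOS, which did not pass, is shown beside them. The windows come from RefSeq (GRCh38.p14) and run from 250 bases before the start site to 50 bases from it onward, read 5′ to 3′ on the gene's strand. They lie at chr5:138465229-138465528 (plus strand) for EGR1, chr19:18281573-18281872 (minus) for JUND, chr2:28392608-28392907 (plus) for FOSL2, chr1:58783998-58784297 (minus) for JUN and chr14:75278578-75278877 (plus) for FOS. Capitals mark every match to the searched motifs on either strand: the CArG box, to which SRF binds, the CRE half-site TGACG, the full CRE TGACGTCA, the AP-1 site TGANTCA and the EGR site, which is GCG, any base, then GGGCG.
EGR1: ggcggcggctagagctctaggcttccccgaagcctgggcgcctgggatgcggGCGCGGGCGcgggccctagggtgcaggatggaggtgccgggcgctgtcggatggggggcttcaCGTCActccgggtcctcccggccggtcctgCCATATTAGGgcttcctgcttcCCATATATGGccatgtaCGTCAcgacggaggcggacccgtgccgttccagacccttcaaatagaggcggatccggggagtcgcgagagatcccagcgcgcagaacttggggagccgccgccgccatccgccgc
JUND: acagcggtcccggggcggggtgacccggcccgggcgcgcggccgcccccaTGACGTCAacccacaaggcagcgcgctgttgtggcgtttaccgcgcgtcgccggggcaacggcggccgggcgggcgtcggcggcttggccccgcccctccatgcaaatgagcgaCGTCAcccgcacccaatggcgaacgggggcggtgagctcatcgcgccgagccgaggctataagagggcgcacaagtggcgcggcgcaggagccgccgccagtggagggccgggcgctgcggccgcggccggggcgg
FOSL2: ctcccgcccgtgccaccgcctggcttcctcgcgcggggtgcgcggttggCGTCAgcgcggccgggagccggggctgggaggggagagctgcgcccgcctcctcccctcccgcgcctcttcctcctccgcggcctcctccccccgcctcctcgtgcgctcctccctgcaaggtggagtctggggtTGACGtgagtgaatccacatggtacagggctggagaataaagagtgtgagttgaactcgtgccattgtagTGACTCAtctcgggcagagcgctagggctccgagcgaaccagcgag
JUN: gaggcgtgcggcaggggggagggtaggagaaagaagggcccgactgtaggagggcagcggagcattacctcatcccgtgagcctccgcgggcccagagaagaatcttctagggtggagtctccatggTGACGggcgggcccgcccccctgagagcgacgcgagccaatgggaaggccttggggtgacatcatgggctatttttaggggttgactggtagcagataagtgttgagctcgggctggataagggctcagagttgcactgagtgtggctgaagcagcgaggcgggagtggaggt
FOS: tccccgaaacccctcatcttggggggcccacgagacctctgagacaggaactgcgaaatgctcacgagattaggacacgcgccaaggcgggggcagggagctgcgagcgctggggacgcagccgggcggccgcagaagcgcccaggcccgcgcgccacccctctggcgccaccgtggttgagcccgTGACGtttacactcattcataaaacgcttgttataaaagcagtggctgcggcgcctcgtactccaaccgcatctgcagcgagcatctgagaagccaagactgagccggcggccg

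Windows were at hand for 8 members, in 10 windows because EGR2 had 3 start sites. FOSL1 and EGR3 are named only. The EGR1 window held 2 CArG boxes, at positions -105 to -96 and -83 to -74 with the start site at 0, and 1 of the EGR2 windows held 1, at -71 to -62. A CArG box was present in 1.29% of all 35116 windows of this length in the table. A CRE half-site was present in 8 of the 10 windows, beside 24.6% of all windows, and each of the 8 members had it in at least 1 window. JUND was the 1 member with a full CRE, at -200 to -193, which overlaps a half-site on each strand and was present in 1.85% of all windows. FOSL2 had an AP-1 site just after its start, at 4 to 10 (7.71% of all windows), and EGR1 and EGR2 each had an EGR site (9.43%). A match describes these letters, not binding. Sequence farther than 250 bases before a start site was not searched. A window without a match, such as that of FOS for the CArG box, does not show that the gene lacks the element.

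**Figure D1:**
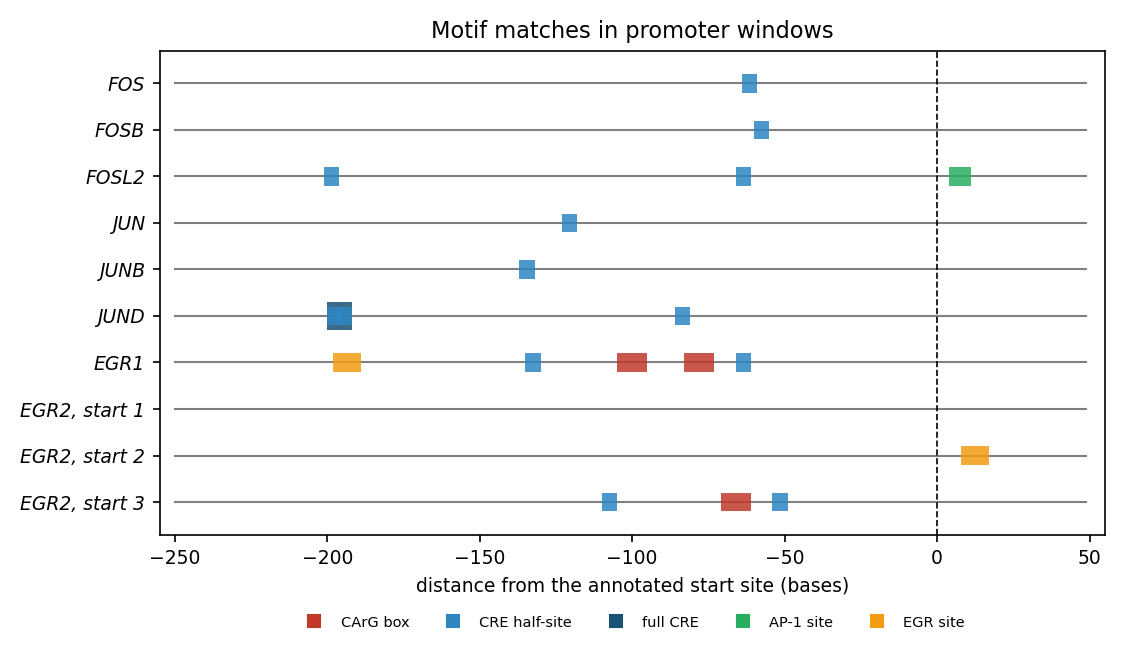
Positions of motif matches in the 10 promoter windows of 8 members, with the distance from the annotated start site in bases on the x axis and 1 line per window. Coloured blocks are matches on either strand, and the full CRE of JUND is the taller block behind its half-sites. CArG boxes appear in the EGR1 window and in 1 EGR2 window.

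Library totals were 18601977 to 19286588 estimated reads, so that 3 reads, the upper limit allowed by a count of 0 (counting error only), come to 0.156 to 0.161 CPM, the read count scaled to the library's total. Of 13 genes listed as cardiomyocyte markers, 2 averaged at least 1 CPM (GATA4 at 37.4 to 46.6 and ACTN2 at 1.12 to 2.37), and TNNT2, NKX2-5 and NPPA had no read in any library. All 8 fibroblast markers averaged at least 1 CPM, and their summed level was 10985 to 11342 CPM in control and 12006 to 12192 in KCl. Of these 8, 7 were called higher, as were 20.1% of all genes tested. COL1A1, a large part of the sum, was not, at 4085, 3989 and 4297 CPM in control and 3785, 4009 and 4018 in KCl. The summed level of 4 epithelial markers was 241 to 255 CPM in control and 355 to 379 in KCl, and was mostly KRT18. CDH1 was also higher (0.610, 0.660 and 0.843 CPM in control, 2.89, 1.62 and 2.10 in KCl). EPCAM leaned lower with groups that overlapped (0.610, 0.660 and 0.421 CPM in control, 0.161, 0.431 and 0.215 in KCl). The 3 leukocyte markers in the table summed to 143 to 153 and 107 to 112 CPM, mostly CD68. CD14 went the other way, from 1.58, 1.52 and 1.53 CPM in control to 2.68, 2.69 and 3.55 in KCl, and the defining marker PTPRC was at 1.40 to 2.84. The 4 endothelial markers summed to 0.964 to 1.17 and 1.94 to 2.26 CPM, and the 4 smooth muscle markers to 147 to 171 and 136 to 165. In the endothelial sum, PECAM1 went from 0.610, 0.406 and 0.579 CPM in control to 1.28, 1.56 and 1.56 in KCl. KDR did not rise, from 0.458, 0.457 and 0.263 CPM to 0.375, 0.323 and 0.269. CDH5 and VWF were at 0.589 CPM or less in every library. The part of these shifts in the results on early genes was not tested. In these bulk libraries, fewer cells expressing a gene and less RNA per cell cannot be told apart.

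The 10 genes fell into 2 sets of very different level at 16 h, by the authors' FPKM (fragments scaled to gene length and library size). FOSL1, JUN, JUND, FOSL2, JUNB and EGR1 had 24.59 FPKM or more in every library. FOS, EGR2, EGR3 and FOSB had 1.17 FPKM or less in every library. FOSL1, which codes for the FOS-related factor FRA-1, was the highest in both groups, at 216 ± 14.1 FPKM in control and 213 ± 4.44 in KCl (mean ± SD, n = 3). Its level was 185 to 256 times that of FOS in the same library, and 4.51 to 6.09 times that of FOSL2, which codes for FRA-2. JUN came next, at 67.0 ± 4.03 FPKM in control and 73.5 ± 2.60 in KCl.

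Below JUN in control stood EGR1 (38.8 ± 5.03 FPKM), FOSL2 (37.6 ± 2.44), JUND (36.1 ± 3.20) and JUNB (33.0 ± 2.33), and the ranges of neighbours in this order overlapped. In KCl the order became JUND (46.1 ± 1.53), FOSL2 (45.6 ± 0.700), JUNB (31.5 ± 2.40) and EGR1 (25 ± 0.684). There JUND and FOSL2 overlapped, while FOSL2, JUNB and EGR1 were apart. At the bottom, FOS (0.987 ± 0.168 FPKM in control) and EGR2 (0.873 ± 0.115) overlapped in both groups, as did EGR3 (0.347 ± 0.0961) and FOSB (0.280 ± 0.135).

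**Figure D2:**
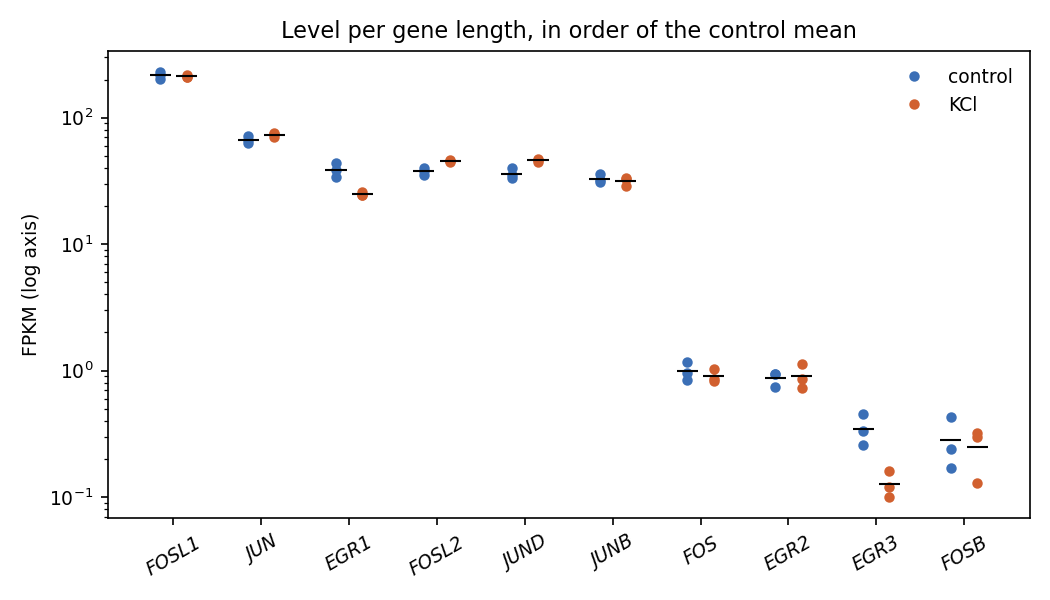
FPKM of the 10 genes on a log axis, in order of their control mean. Points are libraries (blue control, orange KCl) and bars are means of 3 libraries. FOSL1 lies above all others, and FOS, EGR2, EGR3 and FOSB lie near or below 1 FPKM.

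All 10 genes entered the test (edgeR's two-sided quasi-likelihood test on estimated counts, Benjamini-Hochberg adjusted over all genes tested). After KCl 3 were higher (FOSL2, JUN and JUND) and 2 lower (EGR1 and EGR3). Of the 13044 genes tested, 20.1% were called higher and 18.0% lower, 38.0% in all, so 5 called of 10 is near the background. The groups did not overlap at the same 5 genes, as at 47.8% of all genes tested. The median log2 fold change was 0.02 over the 10 genes and -0.005 over all genes tested. EGR3 passed the filter on low counts through its control libraries, with 1 KCl library at 10 reads or more. On the FPKM scale, JUN was no longer called, which left 2 higher and 2 lower.

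**Figure D3:**
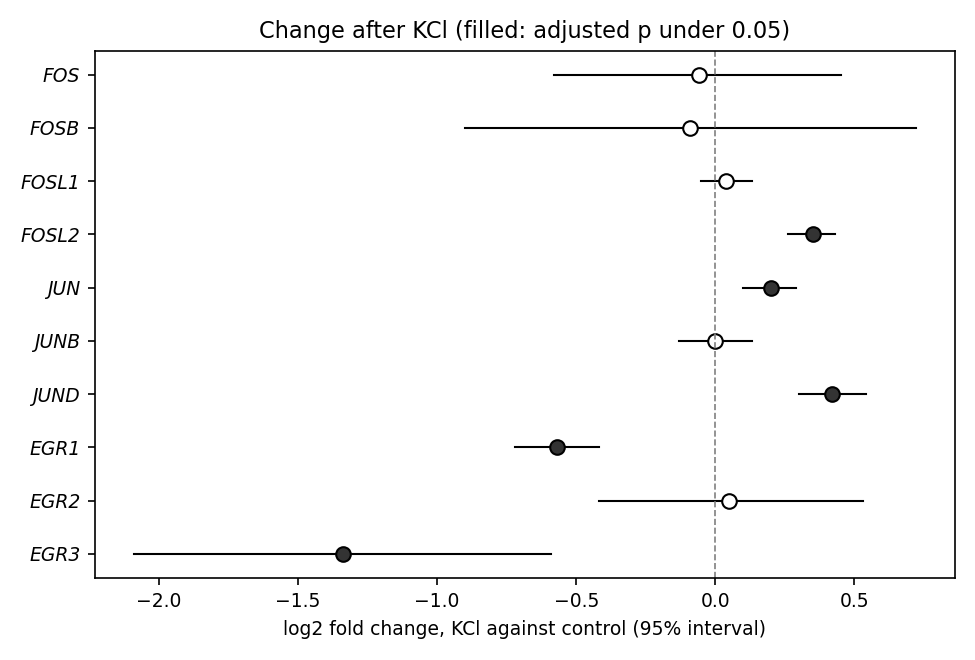
Log2 fold change of each gene (KCl against control) on the x axis, with its 95% interval as a line, from 3 libraries a group. Filled points had an adjusted p under 0.05. JUND, FOSL2 and JUN lie right of 0, EGR1 and EGR3 left of it, and the intervals of FOS, FOSB, EGR2 and EGR3 are wide.

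Among the FOS genes, FOSL2 rose. Its protein FRA-2 is a FOS-family partner of JUN whose gene lies on chromosome 2 (28392448 to 28417312, plus strand, GENCODE 29 on GRCh38). It had 214, 199 and 211 CPM in control and 267, 262 and 266 CPM in KCl. All KCl libraries were above all control libraries, and they differed little among themselves. The log2 fold change was 0.35 ± 0.04 (SE; edgeR adjusted p = 2.3e-07), a 1.27-fold rise with a 95% interval of 1.20 to 1.35.

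FOSL1 had 352, 327 and 373 CPM in control and 368, 360 and 355 CPM in KCl. The KCl libraries lay inside the control range. Its log2 fold change was 0.04, with a 95% interval of -0.05 to 0.13 (edgeR adjusted p = 0.463), so a change as large as that of FOSL2 was outside the interval. The libraries held 6435 to 7076 reads of FOSL1 and 3921 to 4994 of FOSL2, and their estimates are the most precise of the family.

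FOS, the founding member and the usual marker of a recent stimulus, had 47, 34 and 37 reads in the control libraries, against 34, 33 and 41 after KCl. Those ranges overlapped. The log2 fold change was -0.06 with a 95% interval of -0.58 to 0.45 (edgeR adjusted p = 0.863), which spans a fall to 0.669 of control and a 1.37-fold rise, so changes within it were not detectable at this depth. FOSB had 30, 12 and 16 reads in control and 9, 21 and 22 in KCl, with groups that overlapped and a 95% interval of -0.90 to 0.72 for the log2 fold change (edgeR adjusted p = 0.875). Counts per gene do not separate full-length FOSB from its shorter splice form, known as deltaFosB.

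By TPM, FOSL1 made up 83.9%, 84.8% and 85.5% of the summed level of the 4 FOS genes in control and 82.6%, 81.9% and 81.4% in KCl. FOSL2 made up 15.5%, 14.8% and 14% in control and 17.1%, 17.6% and 18.0% in KCl. For both genes, the shares of the groups did not overlap. Shares of 1 sum depend on each other, so these are not separate results. The level of FOSL1 itself was 457 ± 33.8 TPM in control and 459 ± 7.93 TPM in KCl. FOS held 0.321% to 0.453% of the sum. The sum itself was 539 ± 38.0 TPM in control and 560 ± 7 TPM in KCl.

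Among the JUN genes, JUND and JUN rose. JUND is regarded as the most constitutive of the 3 and codes for a factor often found at high level in resting cells (chromosome 19, 18279760 to 18281622, minus strand). It had 73.5, 64.8 and 62.2 CPM in control and 90.0, 86.2 and 91.9 CPM in KCl. Every KCl library was above every control library. This gave a log2 fold change of 0.42 ± 0.06 (SE; edgeR adjusted p = 2.74e-06), a 1.34-fold rise with a 95% interval of 1.23 to 1.45.

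JUN, which codes for c-Jun, the classical AP-1 partner of FOS (chromosome 1, 58780788 to 58784327, minus strand), had 227, 202 and 211 CPM in control and 246, 235 and 253 CPM in KCl. The groups were apart, by a small gap between 227 and 235 CPM. The log2 fold change was 0.20 ± 0.05 (SE; edgeR adjusted p = 0.00123), a 1.15-fold rise with a 95% interval of 1.07 to 1.22. By limma on log2(FPKM + 1) the log2 fold change was 0.13 and the call was lost (adjusted p = 0.059; the alternatives gave 8.5e-05 to 0.059).

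JUNB, whose product is a weaker activator than c-Jun in many settings, had 60.8, 55.1 and 53.1 CPM in control and 58.3, 51.5 and 59.4 CPM in KCl. The groups overlapped throughout. Its log2 fold change was 0.00 with a 95% interval of -0.13 to 0.13 (edgeR adjusted p = 0.99), and the interval for JUND lay wholly above it, from 0.30 to 0.54. By TPM, JUND made up 27.1%, 26.8% and 25.6% of the summed level of the 3 JUN genes in control and 30.4%, 30.9% and 30.3% in KCl. JUNB made up 24.3%, 24.7% and 23.7% in control and 21.3%, 20.0% and 21.2% in KCl. JUN held 48.3% to 50.6% in all libraries, with groups that overlapped.

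EGR1 was the most abundant EGR gene and fell after KCl. It codes for a zinc finger factor that is induced by growth factors, stretch and injury (chromosome 5, 138465490 to 138469315, plus strand), and its window with 2 CArG boxes is printed above. It had 115, 103 and 133 CPM in control and 77.4, 80.9 and 77.3 CPM in KCl. All KCl libraries were below all control libraries, and the control libraries were the more spread out. EGR1 changed on the log2 scale by -0.57 ± 0.07 (SE; edgeR adjusted p = 1.03e-05), which leaves 0.673 of the control level (95% interval 0.606 to 0.748).

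EGR3, a family member known from muscle spindles and lymphocytes (chromosome 8, 22687659 to 22693302, minus strand), was near the limit of the data. The gene passed the filter on low counts through the group where it is high, with 1 KCl library at 10 reads or more. Its reads numbered 21, 27 and 32 in control against 8, 9 and 13 after KCl, or 1.07, 1.37 and 1.69 against 0.428, 0.485 and 0.699 CPM. The KCl libraries were all below the control libraries. This gave a log2 fold change of -1.34 ± 0.36 (SE; edgeR adjusted p = 0.00487), or 0.394 of control with a 95% interval of 0.234 to 0.663. The estimate depended on the scale at so low a level: by limma it was -0.97 on log2(FPKM + 0.1) and -0.26 on log2(FPKM + 1), with the call kept (adjusted p 0.0041 to 0.033 over the alternatives).

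EGR2, which codes for a factor known for its role in myelination, had 53, 42 and 48 reads in the control libraries, against 58, 46 and 38 after KCl. Those ranges overlapped, and the log2 fold change was 0.05 with a 95% interval of -0.42 to 0.53 (edgeR adjusted p = 0.881). The log2 interval of EGR1 (-0.72 to -0.42) meets that of EGR2 at its low end. Within a library, EGR1 was 40.6 to 47.0 times EGR2 in control and 21.8 to 33.7 times in KCl, by FPKM. EGR4, the remaining gene of the family, had 0 to 1 read per library and was not tested. The 3 EGR genes summed to 83.5, 73.9 and 97.2 TPM in control and 55.1, 58.8 and 54.9 TPM in KCl, of which EGR1 was 95.2% to 97.0%.

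**Figure D4:**
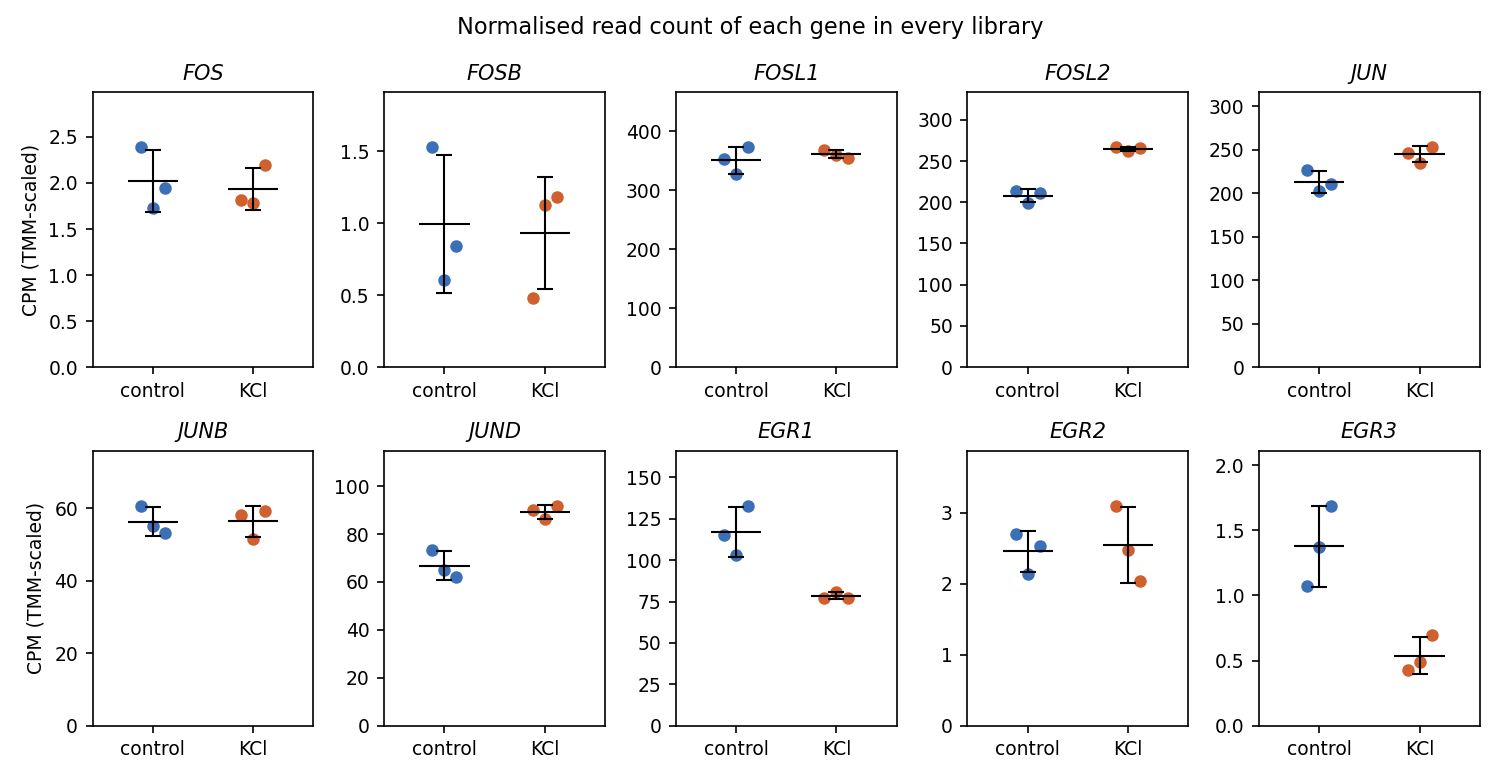
TMM-scaled CPM of each of the 10 genes in every library, with control in blue and KCl in orange. Points are libraries, and bars are the mean ± SD of 3, on axes that start at 0. FOSL2, JUN and JUND are higher and EGR1 and EGR3 lower in every KCl library than in any control library, and the others overlap.

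Genes whose profile over the 6 libraries was nearest to that of a called member were sought among 11662 genes with a symbol and a mean log2 CPM of at least 1. Likeness was the root mean square distance between log2 CPM profiles, each centred on its own mean. FOSL2 was nearest to PODN (0.014), FMNL2 (0.018) and ALCAM (0.019). JUN was nearest to IRF3 (0.010), TNIP1 (0.014) and MAP7D1 (0.015). JUND was nearest to PCBP3 (0.031), SLC16A4 (0.031) and PLEKHO1 (0.036). EGR1 was less closely matched, by TMEM143 (0.041), FOXRED2 (0.067) and SMAD1 (0.067). EGR3, with few reads, had CCDC171 (0.180), NT5M (0.210) and ENTPD5 (0.215). None of these 15 genes was another member, and nothing about shared control follows from them.

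Of the bZIP proteins that can pair with FOS or JUN, 11 of 14 genes were tested, with 4 higher and 1 lower (20.1% and 18.0% of all genes tested) and a median log2 fold change of 0.07. The 5 called of 11 are near the 38.0% called over all genes. MAFK, a small MAF protein that lacks an activation domain, rose from 41.4 ± 1.27 to 59.7 ± 3.04 CPM (log2 fold change 0.53 ± 0.06, edgeR adjusted p = 1.53e-07). MAFF, of the same group, rose by 0.19 from 152 ± 7.36 CPM, and JDP2, a repressor at AP-1 sites, by 0.18 from 75.0 ± 4.27 CPM with groups that overlapped. The JDP2 call was lost on FPKM and TPM and without control replicate 2, control replicate 3 or KCl replicate 3 (adjusted p 0.0051 to 0.38 over the alternatives). MAFG (0.13) also passed as higher and NRL (-0.90) as lower, the latter at 13 to 44 reads per library. The NRL call was lost with DESeq2 and without control replicate 1, control replicate 3, KCl replicate 2 or KCl replicate 3. ATF3, a stress-induced member, was at 0.07 without passing. The 5 calls became 3 with DESeq2 and without control replicate 1, and 2 without control replicate 3 or KCl replicate 3. On FPKM and TPM, 2 genes of the list were higher and 2 lower.

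Of 14 factors and coactivators that act on early gene promoters, 5 were higher and 1 lower (median 0.02), against 20.1% and 18.0% of all genes tested. The 6 called of 14 are near the 38.0% over all genes. ELK3, an ETS partner of SRF, rose from 97.7 ± 4.61 to 125 ± 5.29 CPM (log2 fold change 0.36 ± 0.05, edgeR adjusted p = 2.27e-06), and ATF1, a relative of CREB, by 0.26 ± 0.06 from 47.7 ± 3.86 CPM. CREM, a further CREB relative with activator and repressor forms, fell from 12.3 ± 0.624 to 9.83 ± 0.703 CPM (log2 fold change -0.33 ± 0.11, edgeR adjusted p = 0.0158). The CREM call was lost with DESeq2 and without control replicate 2 or KCl replicate 1 (adjusted p 0.0028 to 0.07 over the alternatives). SRF (0.15), CREB1 (0.17) and the SRF coactivator gene MRTFB (0.20) also passed as higher. The 6 calls became 3 with DESeq2 and without KCl replicate 1. On FPKM and TPM, 3 genes of the list were higher and 2 lower.

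Among 21 kinases upstream of the early genes, 3 were higher and 5 lower (median 0.04), so that the 8 called of 21 stand at the background of 38.0%. CAMK2G, a calcium/calmodulin kinase gene, rose by 0.27 ± 0.06 on the log2 scale from 49.7 ± 1.35 CPM, and RPS6KA3, which codes for the ERK-activated kinase RSK2, by 0.25 ± 0.05 from 72.9 ± 4.78 CPM. MAP2K4, which activates JNK, the kinase of c-Jun, was lower (log2 fold change -0.28 ± 0.07, from 40.7 ± 0.874 CPM, edgeR adjusted p = 0.00166). The RPS6KA3 call was lost on FPKM and TPM (adjusted p 5.3e-05 to 0.19 over the alternatives). RPS6KA1 (0.15) also passed as higher, and CAMK2D (-0.24), CAMK1 (-0.24), BRAF (-0.19) and MAPK8 (-0.15) as lower. MAPK3, the gene of the kinase ERK1, was at -0.04 without passing. The 8 calls became 5 with DESeq2, on FPKM, on TPM and without control replicate 3, 4 without KCl replicate 3 and 3 without control replicate 1. On FPKM and TPM, 1 kinase of the list was higher and 4 were lower.

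Feedback inhibitors of the same signals included phosphatases of MAP kinases (DUSP), inhibitors of receptor signalling (SPRY and SPRED), EGR corepressors (NAB) and mRNA decay factors of the ZFP36 family. Of 18 tested, 10 were higher and 0 lower, against 20.1% and 18.0% of all genes, with a median log2 fold change of 0.21. DUSP4 had 26.5, 24.7 and 25.7 CPM in control and 43.6, 43.6 and 44.6 CPM in KCl, a 1.72-fold rise (log2 fold change 0.78 ± 0.07, edgeR adjusted p = 9.48e-10). DUSP5, an ERK phosphatase gene, rose 1.55-fold, from 52.8, 48.1 and 49.1 CPM to 77.5, 72.5 and 82.2 CPM, and SPRY4 1.51-fold from 23.7 ± 3.55 to 35.7 ± 2.22 CPM. All KCl libraries were above all control libraries at these 3 genes, as at 24.5% of all genes tested. The 3 were taken for the smallest p in the list, so their lack of overlap adds no support. The others that passed were DUSP6, DUSP10, SPRY1, SPRY2, ZFP36L1, ZFP36L2 and NAB1, at 0.21 to 0.49. DUSP1 (0.12), ZFP36 (0.00) and NAB2 (0.09) were among those that did not pass. By edgeR 0 were lower also at an unadjusted p under 0.05, and 0 with DESeq2. Over the alternatives 7 to 10 genes of the list were higher. This list, like the others, was chosen with earlier results of these data known. Its excess over all genes is therefore not independent evidence.

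Other early response genes were described by 23 tested genes of 24, with 9 higher and 3 lower, against 20.1% and 18.0% of all genes tested, and a median of 0.16. CCN2, listed in the table as CTGF, codes for a matricellular growth factor and rose 1.83-fold from 160 ± 6.30 to 293 ± 11.7 CPM (log2 fold change 0.87 ± 0.04, edgeR adjusted p = 4.44e-14). IER3, a stress-response gene, rose 1.68-fold from 324 ± 14.8 to 545 ± 36.4 CPM, and SGK1, a kinase gene that responds to salt and hormones, 1.74-fold from 38.9 ± 1.20 to 67.7 ± 1.38 CPM. CCN1 (0.50, listed as CYR61), MYC (0.25), IER5 (0.39), GEM (0.46), KLF4 (0.34) and KLF6 (0.22) also passed as higher. BTG2 (-0.74), KLF10 (-0.22) and KLF2 (-0.13) passed as lower. The activity-induced genes NR4A1 (0.25), NR4A3 (-0.62), ARC (-0.46) and NPAS4 (0.15) did not pass. NR4A3 had 7 to 25 reads per library, ARC 2 to 15 and NPAS4 22 to 32, so these could show large changes only.

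Target genes commonly ascribed to AP-1 were measured for 14 of 18 genes, with 8 higher and 2 lower, against the same 20.1% and 18.0% over all genes, and a median of 0.12. CCND1, the cyclin D1 gene, rose 1.48-fold from 128 ± 4.58 to 191 ± 7.55 CPM (log2 fold change 0.57 ± 0.05, edgeR adjusted p = 2.38e-10), and the integrin gene ITGA2 1.59-fold from 58.9 ± 5.51 CPM. IL6 (0.26), EZR (0.19), TIMP1 (0.12) and HMGA1 (0.12) also passed as higher. PLAUR (-0.32) and LIF (-0.37) were lower, and PLAU (-0.04) and CXCL8 (-0.03) did not pass. The collagenase and stromelysin genes MMP1, MMP3, MMP10 and MMP13 had 0 to 15 reads per library and were not tested. On FPKM the calls were 6 higher and 3 lower.

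Of 13 target genes commonly ascribed to EGR1, 7 were higher and 4 lower (20.1% and 18.0% of all genes tested), with a median of 0.24, beside the lower EGR1 itself. THBS1, which codes for the matrix protein thrombospondin 1, rose 2.17-fold from 286 ± 9.74 to 621 ± 28.5 CPM (log2 fold change 1.12 ± 0.04, edgeR adjusted p = 1.32e-16). F3, the tissue factor gene, rose 1.38-fold from 81.9 ± 0.599 CPM, and the growth factor gene FGF2 1.28-fold from 253 ± 4.31 CPM. PDGFB (0.96), TGFB1 (0.29) and GADD45B (0.24) also passed as higher. PDGFA (-0.35), GADD45A (-0.20), ICAM1 (-0.16) and CDKN1A (-0.14) were lower. The members of this list and of the AP-1 list have many regulators, and their changes do not measure the activity of either factor.

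**Figure D5:**
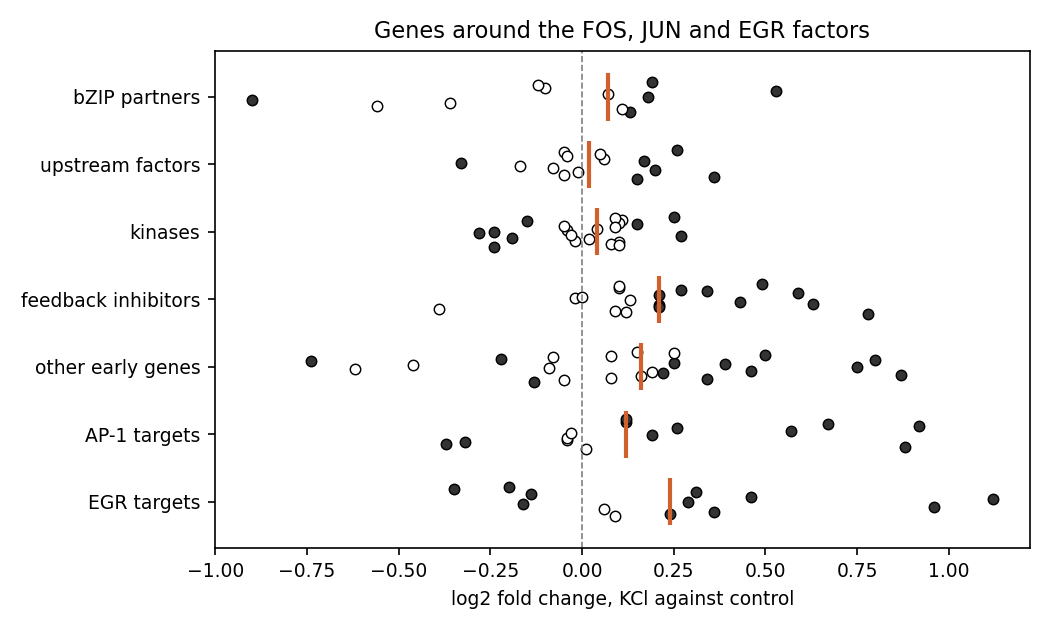
Log2 fold change (KCl against control) of each tested gene in 7 lists around the FOS, JUN and EGR factors, with 1 point per gene. Filled points had an adjusted p under 0.05, and orange bars are list medians. All 10 filled points of the feedback inhibitors lie right of 0, and the kinases lie on both sides.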

How the data were processed

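Messenger RNA was sequenced from 3 control and 3 KCl libraries of AC16 cells. Per the labels' protocols, libraries were strand-specific and made for the DNBSEQ sequencer. Reads were placed on GRCh38.p12 per the submitters' notes on processing. The aligner and counter, and whether counting used strand, were not stated in the labels or the file. FOSB and JUNB each overlap a counted gene on the opposite strand (ERCC1 and HOOK2), so their reads may not be separable.

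The authors deposited, for each library, an estimated count per gene without normalization, of which 11.25% to 11.87% were not whole numbers. They also deposited FPKM and TPM, scaled to gene length and library size. Column codes were matched to groups through the authors' group means (largest difference from the library columns' own mean 3.3e-10).

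Estimated counts were rounded and tested with edgeR 4.0.16 (R 4.3.3): TMM scaling, filterByExpr (minimum count 10, minimum total 15), robust quasi-likelihood F test over 13044 genes, Benjamini-Hochberg threshold 0.05. SE is the log2 fold change divided by the square root of F. CPM values are TMM-scaled, with the prior count 2 for log2 profiles. The fit was tested on simulated counts. Alternatives were RLE scaling, no filter, a mean count of at least 50, DESeq2 1.42.0, limma 3.58.1 (voom, log2 FPKM with pseudocounts 1 and 0.1, log2 TPM with 1), a replicate block and each library left out.

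The members and lists were chosen with earlier results of these data known. All 10 members were named, with up to 3 called genes of the smallest p from each list and the 3 nearest profiles of each called member. Further list genes were named after their values were seen, and a few list genes are counted but not reported here by name. Gene positions are from GENCODE 29, and promoter windows from RefSeq.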

Additional observations from a re-analysis of the deposited data

How the results depend on the processing

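Over 15 alternatives, FOSL2, JUND and EGR1 kept their direction and their call, and so did EGR3 in the 14 that tested it. At a mean count of at least 50, 4 members left the test and of the lower members 1, EGR1, was still tested and called. The JUN call was lost on FPKM. Among all genes, higher calls went from 2621 to 1580 on log2(FPKM + 1) and 1581 on log2(FPKM + 0.1), or from 52.8% of calls to 33.5% and 33.4%, and were 40.9% on TPM. The cause was not tested. DESeq2 called 3 bZIP partners, 3 upstream factors and 5 kinases, and limma called 5 kinases on FPKM with either pseudocount and on TPM.

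With 1 library left out in turn, calls ran from 2 to 5 for bZIP partners, 3 to 6 for upstream factors and 3 to 7 for kinases. The log2 fold change of members that did not pass changed sign: FOS ran from -0.17 to 0.07, FOSB from -0.35 to 0.36, FOSL1 from -0.01 to 0.09, JUNB from -0.04 to 0.06 and EGR2 from -0.12 to 0.19. FOSL1 was at -0.02 on FPKM with either pseudocount. JUNB was at -0.00034 with RLE, -0.0011 with no filter, -0.0033 at a mean count of at least 50, -0.00031 with DESeq2, -0.06 and -0.07 on FPKM with pseudocounts 1 and 0.1, and -0.04 on TPM.

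Control and KCl libraries share replicate numbers, but the deviations of same-numbered libraries correlated at -0.006 to 0.048, so the numbers were not taken as pairs. With the replicate block, 3 members were higher and 2 lower, and 2715 genes were higher and 2425 lower. At 8 to 58 reads per library, FOS, FOSB, EGR2 and EGR3 could show large changes only.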
